A study of Mus musculus with 4 samples.

Results

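Head-to-head pairs are genes on opposite strands whose spans overlap at the 5′ side, so that each gene starts inside the span of the other. They were taken from the exon coordinates of the deposited gene tables (mm10). A pair consisted of a minus-strand row and a plus-strand row, each row being 1 gene of the table, that shared at least 1 exonic base and had no other opposite-strand partner. Neither gene lay inside the other, and the minus-strand gene started first. Of 2876 opposite-strand pairs with 1 partner each, 933 were head-to-head, 872 were tail-to-tail (the 3′ ends overlap) and 1071 had one gene inside the other. The 933 pairs held 1866 of the 50600 rows and lay on 21 chromosomes. The libraries came from primary T helper 2 (Th2) cells of C57BL/6NJ mice, a CD4 T cell subset known for interleukin-4 secretion and type 2 immunity. They formed 1 group with 4 biological replicates and no treatment or control arm, harvested at 48 hours per the file headers. The labels call the assay total RNA-seq, whereas the library protocol they link to is for polyadenylated RNA, and they give the same donor identifier to all libraries. Age was given as unknown and sex was not collected. With 1 group, the comparison available was between the rows of a pair within each library.

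Divergent transcription is common in mammalian genomes. Many housekeeping promoters, often rich in CpG, lack a TATA box and start RNA in both directions, and a head-to-head gene uses the same stretch of DNA as its neighbour. The partner of a coding gene may be another coding gene, as for the chaperonins Hspd1 and Hspe1 or the purine enzymes Ppat and Paics, or a noncoding RNA such as an antisense or promoter-associated transcript. Where the first exons overlap, a read from the shared bases can be given to a gene only if its strand is known.

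The pairs were mostly of a coding and a noncoding gene. There were 593 coding/noncoding pairs (63.6%), 260 coding/coding pairs (27.9%) and 74 noncoding/noncoding pairs (7.93%), and 6 pairs had a row with no match in the annotation used for gene types. Tail-to-tail pairs had the other makeup, with 512 coding/coding (58.7%) and 283 coding/noncoding pairs (32.5%). By type, 1118 of the rows were protein-coding, 339 antisense, 137 lincRNA, 89 processed transcript, 81 TEC (awaiting experimental support) and 32 bidirectional promoter lncRNA. The shared exonic stretch was short. Its median was 199 bases (quartiles 104 and 367, range 2 to 2455), it formed 1 block in 759 pairs, and it covered a median of 7.73% of a row's exonic bases. The rule asks for overlapping spans and not for overlapping first exons, and the shared exonic stretch held the annotated 5′ end of both genes in 310 pairs (33.2%), of 1 gene in 489 (52.4%) and of neither in 134 (14.4%). In the last 2 groups the exonic overlap can lie deep inside a gene. The head-to-head label was also set against an independent annotation of start sites (RefSeq, GRCm38.p6, which is mm10). Start-site windows matched 1125 rows, and 365 pairs had a window for each row. In 210 of those pairs the RefSeq start sites also overlapped, whereas in 155 they lay apart with no overlap, and in 140 pairs they were within 300 bases of each other.

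Start-site windows of 7 genes show shared bases at the 5′ end of the named gene, in pairs whose counts are described below. In the P2ry1, Zbtb5 and Orai1 pairs the shared stretch held the annotated 5′ end of both genes. In the Ftl1, Btf3, Atp5l and Satb1 pairs it held that of the named gene alone. Each runs 5′ to 3′ on the gene's own strand from 250 bases before the RefSeq start site to 30 bases after it, and capitals mark the bases that lie in exons of both genes of the pair.
Ftl1, ferritin light chain, chr7:45459857-45460136, minus strand, partner Gm10252: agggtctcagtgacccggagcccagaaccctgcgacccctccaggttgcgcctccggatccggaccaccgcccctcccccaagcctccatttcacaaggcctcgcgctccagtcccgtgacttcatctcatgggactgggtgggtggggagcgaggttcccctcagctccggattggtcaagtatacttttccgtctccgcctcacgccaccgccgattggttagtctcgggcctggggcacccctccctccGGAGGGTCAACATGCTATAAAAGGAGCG
Btf3, a subunit of the nascent polypeptide-associated complex, chr13:98316977-98317256, minus strand, partner Gm9828: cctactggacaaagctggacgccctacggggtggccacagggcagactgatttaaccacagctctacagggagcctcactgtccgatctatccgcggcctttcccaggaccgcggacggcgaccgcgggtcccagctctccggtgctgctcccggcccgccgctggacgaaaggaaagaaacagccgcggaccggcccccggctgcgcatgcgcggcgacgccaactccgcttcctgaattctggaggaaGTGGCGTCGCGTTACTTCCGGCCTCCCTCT
P2ry1, a purinergic receptor, chr3:61002535-61002814, plus strand, partner Gm37035: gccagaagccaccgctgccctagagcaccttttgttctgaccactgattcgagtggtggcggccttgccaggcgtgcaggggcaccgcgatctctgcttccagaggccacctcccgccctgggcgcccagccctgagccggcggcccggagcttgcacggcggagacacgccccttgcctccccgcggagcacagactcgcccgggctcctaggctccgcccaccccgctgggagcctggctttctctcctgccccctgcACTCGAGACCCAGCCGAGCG
Atp5l, an ATP synthase subunit, chr9:44920713-44920992, minus strand, partner Gm30934: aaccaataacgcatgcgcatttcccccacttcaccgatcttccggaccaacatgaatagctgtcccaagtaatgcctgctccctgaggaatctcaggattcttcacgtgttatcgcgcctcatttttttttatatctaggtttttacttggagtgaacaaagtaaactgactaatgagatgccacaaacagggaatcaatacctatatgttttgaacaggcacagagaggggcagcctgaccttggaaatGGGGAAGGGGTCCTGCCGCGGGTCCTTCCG
Satb1, a chromatin organiser of T cells, chr17:51833261-51833540, minus strand, partner Gm6934: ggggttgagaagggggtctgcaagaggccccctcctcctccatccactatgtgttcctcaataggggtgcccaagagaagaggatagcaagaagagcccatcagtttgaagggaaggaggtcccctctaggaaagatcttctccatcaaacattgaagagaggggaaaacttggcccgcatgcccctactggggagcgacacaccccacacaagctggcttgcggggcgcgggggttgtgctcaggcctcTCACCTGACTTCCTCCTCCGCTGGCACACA
Zbtb5, a zinc finger factor, chr4:45012383-45012662, minus strand, partner 1700055D18Rik: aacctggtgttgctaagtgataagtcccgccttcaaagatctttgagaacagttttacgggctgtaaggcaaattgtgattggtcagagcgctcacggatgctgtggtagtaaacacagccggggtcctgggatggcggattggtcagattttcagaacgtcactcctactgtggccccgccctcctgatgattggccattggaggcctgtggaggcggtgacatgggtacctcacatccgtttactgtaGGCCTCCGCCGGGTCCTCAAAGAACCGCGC
Orai1, the pore of the store-operated calcium channel, chr5:123014824-123015103, plus strand, partner Gm2479: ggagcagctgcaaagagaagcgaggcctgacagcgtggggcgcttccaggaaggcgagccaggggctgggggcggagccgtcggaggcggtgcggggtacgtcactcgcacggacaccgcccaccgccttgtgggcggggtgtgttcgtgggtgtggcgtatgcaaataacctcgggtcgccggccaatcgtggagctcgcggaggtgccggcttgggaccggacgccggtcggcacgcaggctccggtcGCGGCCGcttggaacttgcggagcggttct
In 5 of these windows (Ftl1, Btf3, P2ry1, Satb1 and Zbtb5) all 280 bases lay inside an exon of the noncoding partner, so the promoter of the coding gene was itself transcribed sequence of its neighbour in the annotation. In the Atp5l window 39 bases, and in the Orai1 window 86 bases, lay in exons of the partner. The Orai1 pair shared 7 bases in all, GCGGCCG, and the P2ry1 pair shared 992.

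Library totals were 2271993, 2112190, 2204423 and 1785970 counts in replicates 1 to 4. A row at 0 allows up to 3 counts, which is 1.32 to 1.68 CPM (counts scaled to a library total of 1e6). The head-to-head rows held 10.2% (95% Wilson interval 10.2 to 10.3), 10.3% (10.2 to 10.3), 10.5% (10.5 to 10.5) and 8.89% (8.85 to 8.93) of the counts, a mean of 9.98% ± 0.733 (SD, n = 4), and replicate 4 lay below the other libraries. Intervals and floors cover counting error only. Tail-to-tail rows held 26.7% ± 1.85 of the counts, and rows with no opposite-strand exon overlap at all held 6.64% ± 0.855. Of the 21764 coding genes, 16963 were among these rows with no overlap. Of the cell type markers, Cd4 had 72, 59, 54 and 68 counts, Gata3 had 44, 35, 21 and 20, and Il4 had 38, 27, 37 and 24, whereas the Th2 cytokine Il5 was at 0. The Th2 genes Il13 and Ccr4 had 10 to 26 and 17 to 42. Of further T cell genes, Lck had 27 to 60 counts, Cd3d 15 to 27, Cd3g 14 to 29 and Trbc2 6 to 27. Trac had 8 to 17, Cd28 4 to 11 and Trbc1 6 to 10. The T cell gene Cd247 (972 to 1364) and the Th2 gene Ptgdr2 (147 to 263) were higher, and each overlaps a gene on the other strand. The B cell, NK cell and erythroid genes Ms4a1, Ncr1, Klrb1c, Hbb-bs and Hba-a1 were at 0 in every library, whereas the B cell gene Cd79a had 14, 8, 4 and 7 counts with no gene opposite it, beside 18, 20, 6 and 9 for the T cell gene Cd3e. The macrophage gene Csf1r (1066 to 1457 counts) and the regulatory T cell gene Foxp3 (490 to 682) were high, and each overlaps a gene on the other strand, while Cd68 had 2 to 5 counts and Lyz2 0 or 1.

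Most head-to-head counts sat in few pairs. The 299 pairs with at least 100 counts on average, summed over both rows, held 95.5% of them, and the 12 highest held 29.8%. At the other end, 198 pairs had no count in any library, and 534 of the 1866 rows were at 0 throughout. Among pairs with no or few counts were the inflammatory cytokine gene Il1b with Il1bos (1 to 6 counts against 0 or 1), the Th2 cytokine gene Il31 with Lrrc43 (0 in both), the small heat shock genes Hspb2 and Cryab (1 count in all) and the peptidase Dpp4 with Gm13561 (1 to 5 counts each). Those 4 pairs were chosen after their values were seen. A pair was tested when its rows together had at least 20 counts on average, which 443 pairs reached and 490 did not.

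Nearly every tested pair was split unevenly between its rows. The levels of the rows, in counts per exonic length, differed in 421 of 443 pairs (edgeR quasi-likelihood test with the library as a block, Benjamini-Hochberg adjusted p under 0.05 over all 1467 opposite-strand pairs). That is 95% of the head-to-head pairs tested, beside 95.6% of all opposite-strand pairs, so being called is no feature of the head-to-head arrangement. The minus-strand row was the higher one in 208 pairs and the plus-strand row in 213, beside 46.5% and 49.1% of all opposite-strand pairs. The difference exceeded 4-fold in 374 pairs (84.4%, beside 84.3%) and 16-fold in 291 (65.7%, beside 67.3%). It was under 2-fold in 37 pairs (8.35%, beside 8.52%). In 417 pairs (94.1%, beside 94.5%) the libraries' levels of one row lay wholly above those of the other. The median absolute log2 difference was 5.15, beside 5.7 over all opposite-strand pairs. With each row set to at least 3 counts per library, so that rows near 0 stand at a bound, it was 4.71, and 231 pairs were over 16-fold apart in every library. Counting assigns a fragment by its strand. With the other strand setting, a fragment inside the shared bases would go to the other row of its pair. Outside the shared bases, that setting would drop fragments counted now and count those of the opposite strand. Levels of whole rows could therefore change, which was not tested. The row names here are those of the deposited tables, and which gene of a pair the counted fragments came from was not tested. Fewer cells with a transcript and less RNA per cell cannot be told apart in bulk libraries.

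The 12 pairs with the most counts show the pattern. In each of them the row of one gene had at least 1891 counts in every library and the row of the other at most 329. Aldoa, the glycolytic enzyme aldolase A, shares 25 exonic bases (chr7:126797668-126797692) with Fam57b on the plus strand. The Aldoa row had 215, 145, 123 and 136 counts and the Fam57b row 13679, 12799, 15181 and 10149. The log2 level of Aldoa over Fam57b was -6.33 ± 0.18 (adjusted p = 7.17e-19). The ± on the log2 level of a pair, here and below, is derived from the test statistic and is not a fitted standard error. Arhgdib, a regulator of small GTPases in blood cells, lies opposite Pde6h, an inhibitory subunit of the cone photoreceptor phosphodiesterase (chr6:136923832-136924216). The shared bases of both pairs lie far from the start of the first gene, 11416 bases from that of Aldoa and 17683 from that of Arhgdib. Arhgdib had 97, 66, 59 and 85 counts, against 12603, 12206, 13839 and 10535 in the Pde6h row. The row labelled with the photoreceptor gene was the higher one in every library, without overlap, and whether its fragments came from Pde6h or Arhgdib was not tested. Ftl1, whose window is printed above, had 29, 13, 5 and 9 counts, and the row of its TEC partner Gm10252 had 9830, 8509, 9618 and 5904 (log2 -9.94 ± 0.25, adjusted p = 1.21e-19). Btf3 had 36 to 66 counts and the bidirectional promoter lncRNA Gm9828 had 3555 to 6343. Rbm3, a cold-inducible RNA-binding protein, had 30 to 52 counts, and its antisense gene Rbm3os 2242 to 4061.

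The arrangement was mirrored where the coding gene was on the plus strand, as for Srsf1, Pim1, P2ry1 and Bhlhe40. Srsf1, a splicing factor, had 123, 92, 59 and 62 counts, against 3893, 3385, 3553 and 2225 in the antisense row Gm11508 (log2 of Gm11508 over Srsf1 8.99 ± 0.19, adjusted p = 1.5e-20). Pim1, a kinase induced by cytokine signalling, had 24 to 51 counts, and Gm26885 had 2232 to 3865. P2ry1 had 329, 313, 250 and 189 counts and Gm37035 had 2690, 2622, 2621 and 1891, so the P2ry1 row held 9.91% of the counts of its pair, more than the lower row of any other of these 12 pairs. Bhlhe40, a helix-loop-helix factor of activated T cells, had 36 to 49 counts and 0610040F04Rik had 2042 to 2940. Among the remaining pairs, Mat2a, which makes S-adenosylmethionine, lies on the minus strand. It had 29 to 50 counts, and the lncRNA gene Particl opposite its start 1958 to 2867. Emc8, of the endoplasmic reticulum membrane complex, had 1960 to 2707 counts, and Cox4i1, a cytochrome c oxidase subunit, 14 to 24. The exception to coding rows being low against noncoding ones was Psph, phosphoserine phosphatase, with 2200 to 2963 counts against 97 to 156 for Cct6a. The annotation used here types Cct6a as a processed transcript, although the gene encodes a chaperonin subunit, so that pair is coding/coding in function.

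**Figure D1:**
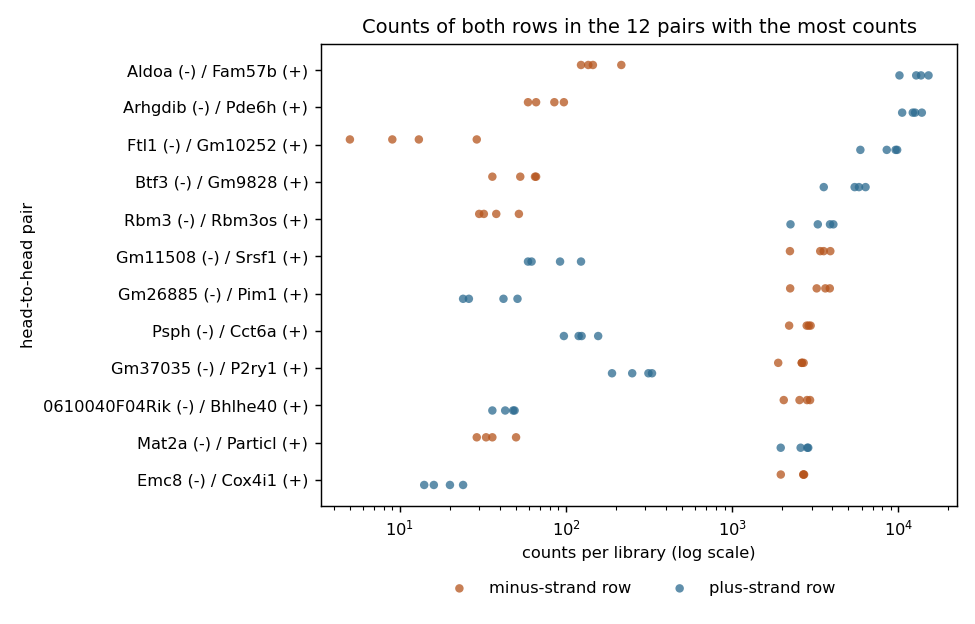
Counts per library (log scale) of the minus-strand row (orange) and the plus-strand row (blue) in the 12 head-to-head pairs with the most counts, 1 point per library. In each pair the points of the higher row lie at 1891 or more and those of the lower row at 329 or less, with no overlap.

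Coding/noncoding pairs had their counts on the noncoding row. Of 253 such pairs tested, the noncoding row was called higher in 228 and the coding row in 15, and 10 were not called. Over all coding/noncoding opposite-strand pairs 92.8% were called with the noncoding row higher. Per length, the noncoding row exceeded the coding row in every library in 229 pairs (90.5%), beside 92.6% of all 794 coding/noncoding opposite-strand pairs, and the coding row did so in 14, beside 4.79%. The remaining 10 pairs were mixed. The median log2 level of the noncoding over the coding row was 5.83. Summed over the pairs of this class, noncoding rows had 118627, 110706, 118444 and 77946 counts and coding rows 10185, 9187, 8703 and 7484. The noncoding rows thus held 92.2% ± 0.788 of the counts (SD, n = 4) with 26.8% of the exonic length, under the strand setting of the deposited counts. The share under the other setting was not computed here, since the reads are needed for it.

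The pairs were also described by where the shared stretch lies, a grouping made after the values were seen and given with no test. Where it held the 5′ end of both genes, 149 of 164 tested pairs were called (90.9%) and the median absolute log2 difference was 4.2, against 227 of 231 (98.3%) and 5.42 where it held that of 1 gene, and 45 of 48 (93.8%) and 5.27 where it held neither. In coding/coding pairs the medians were 3.11 (74 pairs), 4.11 (84 pairs) and 5.31 (24 pairs). In coding/noncoding pairs the noncoding row was higher in every library in 73 of 87 (83.9%), 134 of 142 (94.4%) and 22 of 24 (91.7%).

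The 14 pairs with the coding row higher included Psph/Cct6a and 4 others among the 5 with the most counts. B3gnt2, an N-acetylglucosaminyltransferase, had 251, 205, 279 and 173 counts and 9130230N09Rik had 25, 27, 19 and 29 (log2 0.83 ± 0.21, adjusted p = 0.000931). Slc18a2, the vesicular monoamine transporter of neurons and mast cells, had 207, 183, 202 and 134 counts while the antisense row Gm29261 was at 0 in every library. Tlk2, a chromatin assembly kinase, had 117 to 172 counts and 1700052K11Rik 1 to 4. Pcbp1, an RNA-binding protein with an intronless gene, had 135, 90, 75 and 85 counts, and 1600020E01Rik had 49, 40, 60 and 29 (log2 2.35 ± 0.21, adjusted p = 7.84e-10). The B3gnt2 pair shared 22 exonic bases and the Pcbp1 pair 75. These 14 pairs are 5.53% of the coding/noncoding pairs tested.

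Coding/coding pairs were split nearly as often, though less steeply. The levels differed in 170 of 182 pairs, beside 93.0% of all coding/coding opposite-strand pairs, with a median absolute log2 difference of 3.95. Several of these are textbook bidirectional promoters, and they were chosen for description after their values were seen. Hspd1 and Hspe1, which encode the mitochondrial chaperonin and its co-chaperonin, had 357, 292, 218 and 223 counts against 39, 38, 33 and 34 (log2 2.06 ± 0.17, adjusted p = 1.37e-10). Ppat and Paics, of purine synthesis, were close, with 141, 109, 113 and 63 counts against 141, 136, 132 and 104 (log2 -0.79 ± 0.16, adjusted p = 0.000109). Psmb9, an immunoproteasome subunit, had 237, 205, 292 and 206 counts, and Tap1, of the peptide transporter that loads MHC class I, had 22, 47, 34 and 32 (log2 3.38 ± 0.20, adjusted p = 2.83e-13). The paired mitochondrial ribosomal protein genes Mrpl46 and Mrps11 had 428 to 596 against 4 to 10 counts. The paired histidyl-tRNA synthetase genes Hars and Hars2 had 19 to 45 against 964 to 1434. Thymidine kinase Tk1 and Afmid had 109 to 165 and 94 to 151 counts, with a log2 difference of -0.36 ± 0.15 (adjusted p = 0.0275). Counts were thus close in some of these coding pairs (Ppat/Paics, Tk1/Afmid) and far apart in others (Mrpl46/Mrps11, Hars/Hars2).

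**Figure D2:**
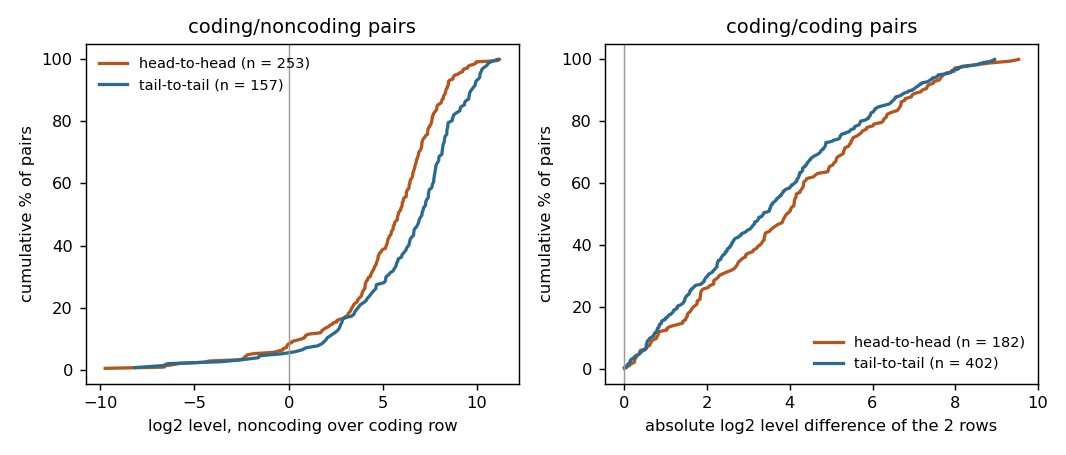
Cumulative percentage of tested pairs against the log2 level of the noncoding over the coding row (left) and against the absolute log2 level difference of coding/coding pairs (right), for head-to-head (orange) and tail-to-tail pairs (blue). In coding/noncoding pairs the head-to-head curve has its median at 5.83 and the tail-to-tail curve at 7.08, and in coding/coding pairs the medians are 3.95 and 3.36.

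Even pairs were a minority. The lower row held at least 25% of the counts in 30 of the 299 pairs with at least 100 counts (10%), of which 19 were coding/coding and 11 coding/noncoding. In tail-to-tail pairs it did so in 60 of 426 (14.1%). By class the head-to-head and tail-to-tail shares were 14.7% and 18.5% in coding/coding pairs, and 6.59% and 3.39% in coding/noncoding pairs. Among those 299 pairs, the 6 with the smallest level difference did not pass the edgeR test, with adjusted p from 0.0595 to 0.488. Wbp4, a spliceosomal protein, and Elf1, an ETS factor of lymphocytes, had 58, 57, 60 and 70 against 86, 75, 70 and 48 counts (log2 0.15 ± 0.21, adjusted p = 0.488), and Wbp4 was the row with more counts in replicate 4 alone. Zbtb5 and 1700055D18Rik had 73, 69, 72 and 42 against 47, 55, 59 and 29 (log2 -0.15 ± 0.20, adjusted p = 0.451). Zbtb5 had more counts in every library, and without length the sign turned to 0.44. In Dtx3l/Parp9, which encode an interferon-inducible ubiquitin ligase and its partner in DNA damage signalling, the counts were 98, 118, 122 and 79 against 104, 115, 139 and 68 (log2 -0.25 ± 0.16, adjusted p = 0.146). Atp5j, of the mitochondrial ATP synthase, and Gabpa, an ETS factor, made the even pair with the most counts, 619, 606, 718 and 405 against 1116, 928, 955 and 603 (log2 0.25 ± 0.12, adjusted p = 0.0595). Here Gabpa had more counts and Atp5j the higher level per length, and the sign turned to -0.61 when length was left out. Rps27a/Clhc1 (log2 -0.29 ± 0.21, adjusted p = 0.198) and Cops5/Cspp1 (-0.24 ± 0.28, adjusted p = 0.411) were the other two. Leaving out length gave calls for both, at -0.46 and -2.45, since Cspp1 has 17553 exonic bases and Cops5 3766. A p above the threshold does not show that the rows of these pairs were equal.

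The 6 steepest differences in pairs with at least 100 counts, of which the Ftl1 pair is one, were against a row with few counts. Imp4, a protein of ribosomal RNA processing, had 14, 9, 9 and 7 counts over 8553 exonic bases, and the 529-base antisense row Gm28306 had 1514, 1492, 1617 and 1124 (log2 11.19 ± 0.20, adjusted p = 1.09e-20). Herc4, a ubiquitin ligase, had 5 to 11 counts and 1700120B22Rik 278 to 464. Atp5l had 1, 0, 1 and 1 counts against 304, 288, 266 and 201 in Gm30934. Lockd, a lncRNA, had 1 to 3 counts against 176 to 279 in Gm44238, and E130309D02Rik had 1 to 4 against 398 to 633 in Gm42501. No fold is given here for the rows with 0 to 4 counts, since a fitted value there depends on the prior count.

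Gene groups were read by their partner, because coding rows lay low against noncoding partners whatever their function. Over all tested pairs, coding rows with a noncoding partner were higher in 15, lower in 228 and not called in 10 (median log2 -5.83), while coding rows with a coding partner were by construction higher and lower equally often (170 each). Across the 7 gene lists, rows with a noncoding partner were higher in 1, lower in 22 and not called in 3 cases, and rows with a coding partner were higher in 12, lower in 20 and not called in 5. Mitochondrial ribosome genes had coding partners throughout, with 3 higher and 2 lower in the 5 pairs with 1 listed row (median log2 2.69). Mrpl48 had 664 to 1203 counts against 6 to 23 for Rab6a, a Golgi GTPase, and Mrpl13 had 222 to 306 against 28 to 31 for Mtbp. Mrpl21 had 72 to 109 counts and Ighmbp2 24 to 30, whereas Mrps30 had 2 to 10 against 734 to 1314 in B430218F22Rik. Respiratory chain genes were higher in 0, lower in 4 and not called in 1 of 5 pairs (median -5.06). With a noncoding partner 2 of 2 were lower (median -9.59). Both of these listed rows had 0 or 1 count in each library, so that median depends on the prior count. With a coding partner 2 were lower and 1 not called (median -1.65). Ndufb11, of complex I, had 17, 19, 21 and 19 counts against 308, 248, 255 and 177 for the splicing regulator Rbm10 (log2 -1.65 ± 0.20, adjusted p = 1.09e-07). Sdhaf4, an assembly factor of complex II, had 0, 0, 1 and 1 against 59 to 98 in Gm26524.

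The DNA replication and repair list, which also takes in RNA polymerase subunits and, by its spelling, the cytoskeletal gene Cdc42ep3, was higher in 2, lower in 6 and not called in 1 of 9 pairs (median -2.98), and with a coding partner higher in 2, lower in 4 and not called in 1 (median -2.65). Polr2i had 28, 17, 16 and 23 counts against 227, 213, 201 and 153 for the tubulin chaperone Tbcb, Polr3b had 4 to 13 against 97 to 120 in Gm17249, and Rad17 3 to 11 against 39 to 81 in Ak6. Orc6, of the origin recognition complex, had 35, 31, 5 and 14 counts and Vps35, of the retromer, 72, 49, 53 and 52 (log2 of Vps35 over Orc6 -0.37 ± 0.31, adjusted p = 0.247). That pair was called at -0.72 without replicate 3 and turned to 1.47 when length was left out. RNA processing and translation genes, a list that also holds proteasome and chaperonin subunits, were higher in 6, lower in 5 and not called in 3 of 14 pairs (median 0.0), and with a coding partner higher in 5, lower in 3 and not called in 2 (median 1.61). Sf3a2, of the U2 snRNP, had 664 to 1127 counts against 40 to 71 for Plekhj1, and Rps18 had 290 to 428 against 5 to 13 for Vps52. Psma4, a proteasome subunit, had 60 to 116 against 894 to 1359 in AY074887. Cct7 and Pradc1 had similar counts, 117 to 183 and 90 to 167, but different lengths, so that the log2 level of Pradc1 over Cct7 was 1.76 ± 0.16 per length and 0.02 without length.

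Zinc finger genes were higher in 1, lower in 10 and not called in 2 of 13 pairs (median -1.48), and with a coding partner higher in 1 and lower in 4 of 5 (median -1.48). Zfp593 had 3, 6, 6 and 3 counts against 2511, 2207, 2358 and 1702 in E130218I03Rik, with which it shares 1627 exonic bases, and Zfp26 had 2 to 10 against 375 to 738 in the lincRNA Gm26733. Zfp511 had 54 to 90 counts and Tubgcp2, of the gamma-tubulin complex, 175 to 289 (log2 0.83 ± 0.15, adjusted p = 3.25e-05). Zfp689 and B130055M24Rik had 61 to 84 and 59 to 84 counts, and the log2 level of -0.87 ± 0.18 per length became 0.0 without length. Vesicle and protein quality control genes were higher in 1, lower in 13 and not called in 1 of 15 pairs with 1 listed row (median -5.76). With a noncoding partner 8 of 8 were lower (median -7.07), beside 228 of 253 such coding rows of any function, and with a coding partner 1 was higher, 5 were lower and 1 was not called (median -3.92). Among them were Ube2d3, a ubiquitin-conjugating enzyme, with 64, 40, 18 and 22 counts against 1600, 1477, 1536 and 1086 in 4930539J05Rik, and Usp38 with 3 to 7 against 857 to 1247 in Gm9725. Sec62 of the translocon had 46 to 83 against 358 to 573 in 4933429H19Rik, Sec23ip 6 to 22 against 358 to 579 in Gm44672, and Dnajc30 2 to 6 against 384 to 580 in Bud23.

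**Figure D3:**
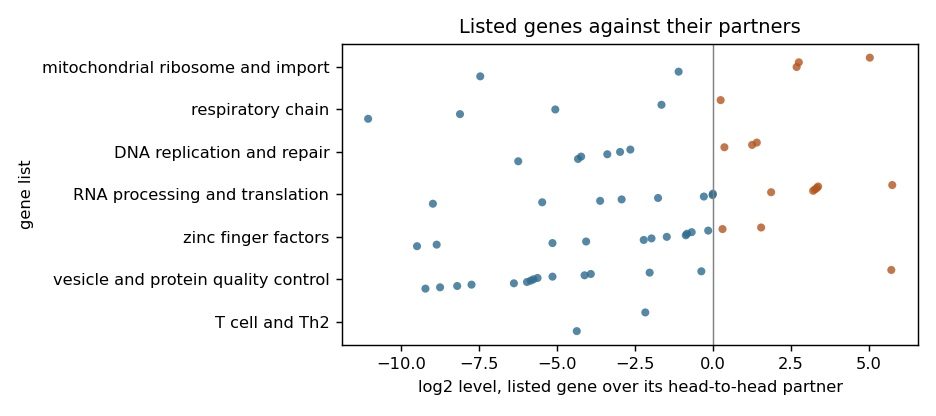
Log2 level of each listed gene over its head-to-head partner, 1 point per tested pair, by gene list (orange where the listed gene is higher, blue where it is lower or at 0). Coding and noncoding partners are pooled. Mitochondrial ribosome genes have a median of 2.69, and respiratory chain, vesicle and T cell genes have medians of -5.06, -5.76 and -3.27.

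The T cell and Th2 list had 2 members in these pairs, and each was lower than its partner. Lef1, a partner of beta-catenin in T cells, had 147, 146, 164 and 104 counts against 1122, 1066, 1057 and 794 in Gm43352, with 1208 shared exonic bases (log2 of Gm43352 over Lef1 4.37 ± 0.14, adjusted p = 4.5e-18). Satb1 had 193, 128, 125 and 126 counts and Gm6934 had 68, 73, 69 and 46. Satb1 was therefore the row with more counts, and the one with the lower level per length, since its exons are longer (19027 against 1905 bases, log2 -2.17 ± 0.18, adjusted p = 2.35e-10, and 1.15 without length). Apart from Orai1, the other immune genes in the pairs were chosen after their values were seen. Csf2, the cytokine GM-CSF, had 12, 17, 3 and 4 counts, whereas the row Gm12223 had 2423, 2309, 1981 and 1445 (log2 of Csf2 over Gm12223 -8.43 ± 0.23, adjusted p = 3.6e-19). Their shared bases (chr11:54247600-54247695) lie 1972 bases from the Csf2 start, near its 3′ end. Gfi1, a repressor that sustains Th2 proliferation, had 60, 49, 45 and 42 counts against 329, 328, 322 and 200 in A430072P03Rik (log2 -3.51 ± 0.16, adjusted p = 5.08e-15). Il6ra, the interleukin-6 receptor, had 82, 82, 101 and 90 against 169, 159, 159 and 105 in Gm42809 (log2 -3.65 ± 0.17, adjusted p = 7.28e-15). Orai1, whose window is printed above, had 10, 9, 14 and 9 counts and Gm2479 had 62, 46, 59 and 32 (log2 of Gm2479 over Orai1 3.25 ± 0.26, adjusted p = 1.01e-10).

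Further immune genes, also chosen after their values were seen, are given by value and make no group. The inflammasome adaptor Pycard had 2 to 9 counts against 1005 to 1375 in Gm45205, the tetraspanins Cd9 and Cd81 had 1 to 5 and 19 to 26 against 268 to 449 in Gm26728 and 405 to 580 in R74862, and the complement regulator Cd55 had 0 or 1 against 34 to 52 in Gm16083. H2-Q4, an MHC class I gene with near relatives that can share its reads, had 23 to 47 against 1279 to 1998 in Gm11131. Jun had 1 to 5 and Junos 74 to 101. Flicr, a noncoding RNA next to Foxp3, had 19, 15, 35 and 20 counts and its coding partner Ppp1r3f 3, 3, 1 and 2. Between coding genes, Myd88, the adaptor of Toll-like receptors, had 53, 40, 27 and 29 counts against 889, 837, 884 and 576 for the peroxisomal thiolase Acaa1a, and Cebpb had 6 to 16 against 193 to 482 for Tmem189. Batf2, of the BATF family, went the other way, with 199, 165, 201 and 122 counts against 4, 5, 5 and 5 for the small GTPase Arl2. Zbtb7b, the CD4 lineage factor ThPOK, had more counts than its partner, 30, 37, 37 and 41 against 6, 11, 12 and 6 in Gm15417, and its level per length did not pass the test (log2 0.31 ± 0.32, adjusted p = 0.345). Camk4, a calcium-dependent kinase, likewise had 85, 93, 79 and 68 counts against 18, 14, 14 and 2 in 2310026I22Rik (log2 of 2310026I22Rik over Camk4 0.45 ± 0.32, adjusted p = 0.178).

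Compared with tail-to-tail pairs, the direction of the difference depended on the class. Over all pairs, the median absolute log2 ratio of level was 4.75, 5.09, 5.39 and 4.76 in head-to-head pairs and 4.07, 4.18, 4.32 and 4.11 in tail-to-tail pairs of the same libraries (pseudocount 0.5). The difference was 0.83 ± 0.204 (SD, n = 4), above 0 in 4 of 4 libraries (exact two-sided sign flips, p = 0.13, the smallest that 4 libraries allow). Within coding/coding pairs it was 0.481 ± 0.135 with the same sign in 4 of 4 libraries (exact p = 0.13). Within coding/noncoding pairs it was -1.19 ± 0.0814, above 0 in 0 of 4 libraries (exact p = 0.13). In these libraries the rows of head-to-head pairs lay further apart between coding genes and less far apart between a coding and a noncoding gene than in tail-to-tail pairs, and head-to-head pairs had the larger share of noncoding partners. The share of counts was lower in head-to-head rows by 16.7 percentage points (head-to-head minus tail-to-tail -16.7 ± 1.14, below 0 in every library, exact p = 0.13), and in coding/noncoding pairs alone the difference was -0.968. The tail-to-tail set included pairs of the mitochondrial genome, such as mt-Nd6/mt-Nd5 and mt-Ts1/mt-Co1. Their part in the difference in share was not tested. Coding/noncoding tail-to-tail pairs had the noncoding row higher in every library in 147 of 157 (93.6%).

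The row with more counts had more of them where more bases were shared. Across the 443 tested pairs, Spearman's rank correlation between shared exonic bases and the mean count of the row with more counts was 0.36, and that for the row with fewer counts was 0.05. Over all 933 pairs the values were 0.14 and 0.08. The pairs share libraries and depth, so these are descriptions. By length of the shared stretch, the median count of the higher row in tested pairs was 61.0 in pairs sharing under 50 bases, 62.6 at 50 to 99, 117 at 100 to 199, 182 at 200 to 399, 302 at 400 to 799 and 484 at 800 or more. The row's own exonic length went the other way, with a rank correlation of -0.16, and the row with more counts had fewer exonic bases in 293 of 443 pairs. Tail-to-tail pairs had a rank correlation of 0.4 for shared bases and the higher row's count over 567 pairs.

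Pairs at the ends of this range were as follows. Kctd18/Sgo2a shared 2455 bases, the longest stretch, and had 2299, 2465, 2628 and 1553 counts against 12, 8, 9 and 8 for Sgo2a, a protector of centromeric cohesin. Eftud2, a spliceosomal GTPase, shared 2261 bases with Gm26668 and had 27 to 55 counts against 1514 to 2160, and Ubl5 shared 1890 with Fbxl12 and had 202 to 293 against 12 to 19. The pairs with the shortest stretches had fewer counts. Pex13/Pus10 and Gm14104/Crls1 shared 2 bases each, and the Pus10 row, of a pseudouridine synthase, had 129, 117, 118 and 70 counts against 8, 8, 2 and 6 for the peroxisomal gene Pex13. Crls1, cardiolipin synthase, had 3 to 9 counts and Gm14104 9 to 26. Pkn2 shared 10 bases with Gm43646 (5 to 17 against 96 to 146 counts), and Limd2 shared 11 with Gm10840 (152 to 234 against 0 to 3).

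**Figure D4:**
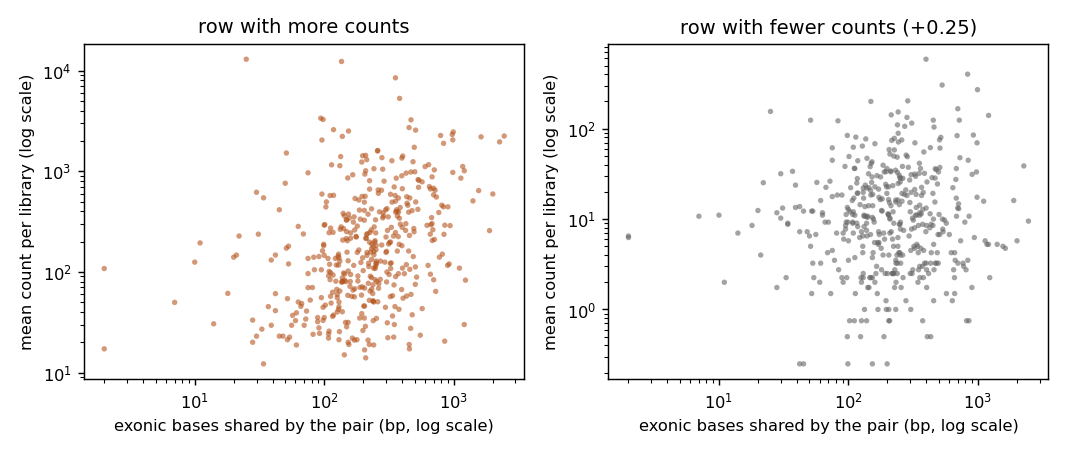
Mean count per library against the exonic bases shared by the pair (both on log scales), for the row with more counts (left) and the row with fewer (right, with 0.25 added), 1 point for each of the 443 tested pairs. The left cloud slopes upward (rank correlation 0.36) and the right one is nearly level (rank correlation 0.05).

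The split between rows was compared between libraries in the pairs with at least 100 counts. The same row had more counts in all 4 libraries in 289 of 299 pairs, which the low share of the lower row makes likely, and the median SD of the log2 count ratio over libraries was 0.45. The chi-square statistic of the 2 by 4 table of counts had a median of 1.28 per degree of freedom (quartiles 0.62 and 2.61), where counting error alone gives about 1, and tail-to-tail pairs had 1.5. Replicate 3 had the smallest share of counts on the lower row. Over the 443 tested pairs the median share of the lower row was 5.38%, 4.84%, 3.4% and 5.0% in replicates 1 to 4. Replicate 3 was lowest in 148 of the 299 pairs with at least 100 counts (49.5%). The median of tested tail-to-tail pairs was lowest in replicate 3 too, at 5.37% against 5.58% to 6.75%. Rows with no opposite-strand overlap also held the smallest share of counts in replicate 3 (5.48%, against 6.67% to 7.53% in the others), and the part of this in the split was not tested. The largest SDs were in pairs with a row at 0 to 5 counts, namely Ppip5k2/Gin1, Slc25a25/Naif1, Gm27184/Tmem185b, Apmap/Gm14123, Gm44226/4833403J16Rik and Rmrp/Ccdc107.

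**Figure D5:**
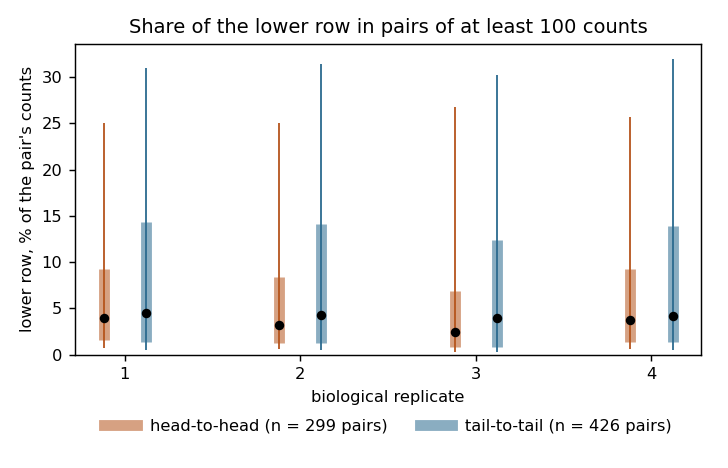
Share of a pair's counts on the row with fewer counts, by replicate, in pairs with at least 100 counts (299 head-to-head, orange; 426 tail-to-tail, blue). Points are medians, thick bars span the quartiles and thin lines the 10th to 90th percentiles. The head-to-head median is lowest in replicate 3, at 2.47%.

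Between replicates, 2 of the 618 member rows tested varied beyond the spread of genes of like abundance (edgeR goodness of fit, Benjamini-Hochberg over 5064 genes, 0.324% of member rows tested beside 0.454% of all genes). Ccdc107, a coiled-coil protein gene, had 47, 55, 58 and 309 counts (adjusted p = 2.01e-29). It was high in replicate 4 alone. Its partner, with 124 shared bases (chr4:43492900-43493023), is Rmrp, the RNA of RNase MRP, whose own row had 1, 0, 0 and 0 counts. Gm9887 had 1377, 1013, 1143 and 506 counts (adjusted p = 0.000967), lowest in replicate 4, and lies opposite Arf6, a small GTPase of membrane traffic, with 65, 55, 40 and 49. Without replicate 4, no member row of 651 was called.

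Start sites of head-to-head coding genes lay in CpG-rich sequence, with values close to those of tail-to-tail coding genes (no test was run). RefSeq windows of 300 bases (250 before to 50 after the start) were found for 860 of 1118 head-to-head coding rows (76.9%). Since fewer than 80% had a window, the following describes the matched rows only and the check is void for the set. Their median GC content was 60.3% and their CpG observed/expected ratio 0.735, against 60.3% and 0.722 for 1015 tail-to-tail coding rows and 57.0% and 0.603 for 16469 coding genes. The letters CCGGAA, the core of ETS factor sites, were found on either strand in 27.8% of the head-to-head coding windows, 27.5% of the tail-to-tail ones and 19.8% of all coding ones. GGGCGG, the GC box, was in 61.4%, 60.2% and 48.3%. TATAAA was in 8.49%, 8.67% and 12.8%, and CCAAT in 38.8%, 39.3% and 38.7%. The palindrome bound by NRF1, 10 bases long, was in 1.4%, 1.77% and 1.38%, and AAGATGG, found in sites of YY1, in 7.33%, 7.68% and 6.45%. Its longer form of 11 bases, which contains it, was in 1.05%, 0.985% and 1.03%. Among the windows printed above, Btf3 held the NRF1 and ETS letters, Atp5l the TATA, CCAAT and ETS letters, and Satb1 none of the 7 motifs. A match is a run of letters, not a bound site.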

How the data were processed

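Mouse Th2 cells gave 4 RNA-seq libraries in 1 group. The deposited tables hold raw counts, 1 per sequenced fragment and gene. Per the file headers they came from featureCounts 1.4.6-p4 (strand setting 1, both ends mapped, exons summed by gene) with GENCODE vM13 on mm10; the aligner's version is not given in the sources used here. Whether strand setting 1 fits the strand of these libraries was not tested. GENCODE vM21 gave gene types, with 224 of 50600 rows unmatched. Replicates come from separate biosamples of 1 donor identifier, so p-values measure only the spread between these samples. Totals were 1785970 to 2271993 counts.

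Exons were merged per gene and pairs built from the tables' coordinates (overlap of at least 1 bp). Levels are counts per exonic length, which the deposited tables give in bp. Rows of a pair were compared in edgeR 4.0.16 (limma 3.58.1, R 4.3.3) with pairs as features, the library as a block and offsets for library total and exonic length, over all pairs with a summed mean of at least 20. Pairs are treated as features and not as replicates of a condition. The ± on the log2 level of a pair is its absolute value over the square root of the test's F statistic. It can be smaller than the spread between libraries where a row has few counts. For Csf2/Gm12223 it was 0.23, while the log2 ratio of counts had an SD of 0.91 over libraries. Replicate variation was tested with edgeR's goodness-of-fit test on a model holding an intercept alone (trended dispersion, TMM, filterByExpr). Differences between pair types used exact sign flips over libraries. On data simulated with a fixed dispersion and rows drawn independently, the pair test recovered 90% of 2-fold and 99% of 4-fold differences. It called 0.474% of unchanged pairs among 1467. The replicate test recovered 22% and 100% of 2-fold and 4-fold changes among 5313 genes. These rates hold for the simulated spread, and rates at the spread of these data were not tested.

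Named pairs (69) are those with the largest summed counts, the smallest and largest level differences, the largest SDs, varying rows, listed genes (up to 5 of each list), the shortest and longest shared stretches, and up to 5 with the coding row higher; others are named as chosen after their values were seen. The pairs and gene lists were chosen with earlier results of these data known. Start-site windows are from RefSeq (GRCm38.p6). Alternatives were other minimum counts, no length offset, DESeq2 1.42.0, head-to-head pairs alone, an overlap of at least 50 bp, other pseudocounts, and leaving out each replicate. The position of shared bases against 5′ ends was described after seeing the data. Added then as alternatives were pairs without same-strand overlap, each class alone, and rows set to at least 3 counts. Other steps ran in Python 3.11.15 with numpy 2.4.6, SciPy 1.17.1, pandas 2.3.3 and Matplotlib 3.10.9. A few named items are not reported here. Signal tracks were not analysed here.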

Additional observations from a re-analysis of the deposited data

Results flagged for a closer look

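In 10 of 118 measures 1 library lay far from the other 3 by Dixon's ratio (95% critical value for 4 samples), and chance gives about 1 in 20. Replicate 4 was the library in 8 of them. Its share of counts in head-to-head rows was 8.89%, against 10.2% to 10.5% in the others. In CPM, Ccdc107 stood at 173 in replicate 4 against 20.7 to 26.3, and Wbp4 at 39.2 against 25.5 to 27.2. The others were low in replicate 4, namely B430218F22Rik (411 against 551 to 578), 4930539J05Rik (608 against 697 to 704), Mrpl48 (372 against 515 to 531), Zbtb5 (23.5 against 32.1 to 32.7) and Ak6 (21.8 against 35.7 to 37.9). Limd2 was high in replicate 2, at 111 CPM against 85.1 to 88.5. The median absolute log2 ratio of level in coding/noncoding pairs was high in replicate 3, at 6.26 against 5.69 to 5.78.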

How the results depend on the processing

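The count of pairs with different levels (421 of 443) ranged from 291 of 299 at a minimum of 100 counts to 545 of 735 with no minimum, and from 413 to 423 when each replicate was left out. With DESeq2 it was 413, without same-strand overlaps 378 of 397. The difference of head-to-head from tail-to-tail pairs in level ratio turned to -1.19 in coding/noncoding pairs alone; over all pairs it was above 0 throughout, from 0.178 with no minimum and 0.372 on raw counts to 1.15 at a minimum of 100. The number of rows that varied between replicates fell from 2 to 1 with a common dispersion, and to 0 without replicate 4 (2 when any other replicate was left out); the cause of the first was not tested. The rank correlation of shared bases and higher-row count rose from 0.14 to 0.36, and that of the lower row moved from 0.08 to 0.05, in pairs with at least 20 counts. The lower row's median share was 3.34% at a minimum of 100 counts, from 4.65%. Of the alternatives over the 69 named pairs, 668 kept direction and call, 4 reversed, 2 lost and 4 gained a call. Leaving out length reversed Atp5j/Gabpa (-0.61), Satb1/Gm6934 (1.15), Zbtb5/1700055D18Rik (0.44) and Vps35/Orc6 (1.47), whose rows differ in exonic length. Atp5j/Gabpa was called at 0.33 without replicate 1. The library block is part of the main pair test. Depth limits the lower rows, of which 55 among the tested pairs were at or under 3 counts in every library.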
